A study of Mus musculus with 24 samples.

Results

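The genes described here encode elastin, the microfibril proteins that carry it, an assembly factor and the enzymes that crosslink the fibre. They are Eln, Fbn1, Fbn2, Ltbp2, Mfap4, Mfap5, Fbln5, Lox, Loxl1 and Loxl2, taken from the count table by matching each symbol to its gene identifier. All 10 of 10 were found among 78275 genes, and all 10 passed the filter on low counts that left 17490 genes for testing. RNA of whole lung was sequenced from male C57BL/6 mice aged 20 weeks, in 8 groups of 3 libraries. C was untreated. RIC was not exposed and received remote ischemic conditioning, in which blood flow to the left leg was stopped for 5 minutes and restored for 5 minutes in 3 cycles, 3 days a week for 4 weeks. DE breathed diesel exhaust for 30 minutes a day, 5 days a week, for about 8 weeks, the submitters' model of pulmonary fibrosis. DE+PFD was exposed and given the antifibrotic drug pirfenidone by mouth at 300 mg/kg/day in 0.5% carboxymethylcellulose on 6 days a week. Exposed mice conditioned before the exposure (preconditioning) form RIC+DE, or RIC+DE+PFD where the drug was given too. Those conditioned during it (perconditioning) form DE+RIC, or DE+PFD+RIC with the drug. No group was labelled as given the carrier of the drug alone. The labels number 3 libraries a group without saying that each is a separate mouse, so p-values measure the spread between libraries, which may be partly technical. In whole lung, fewer cells of a type and less RNA per cell cannot be told apart.

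Elastic fibres let the lung, its airways and its vessels recoil. Tropoelastin, the product of Eln, is laid on a scaffold of microfibrils built from fibrillins, with fibulin-5 helping it to deposit. Lysyl oxidases then oxidise lysines so that neighbouring chains become covalently linked. Smooth muscle cells, fibroblasts and vessel endothelium are known makers, and the fibres are laid down mainly in development.

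Upstream sequences are shown, of Ltbp2, the member whose level differed most between the lowest and the highest library apart from the barely detected Fbn2 (a range that rests on 1 library), and of Fbln5, whose level differed least. Both genes lie on chromosome 12 and are read from the minus strand. Promoter entries of RefSeq, build GRCm38.p6, were found for 3 of the 10 members, and that of Fbn1 is not printed because it lies within an annotated exon. The first sequence is chr12:101819120-101819369 and the second is chr12:84876533-84876741, each given 5′ to 3′ on the strand of the gene and ending upstream of any annotated exon. Capitals mark matches on either strand to the GC box GGGCGG and to the Smad box GTCTG. The TATA box TATAAA and the AP-1 site TGANTCA were sought in the same way, and these letters are not in either window.
Fbln5: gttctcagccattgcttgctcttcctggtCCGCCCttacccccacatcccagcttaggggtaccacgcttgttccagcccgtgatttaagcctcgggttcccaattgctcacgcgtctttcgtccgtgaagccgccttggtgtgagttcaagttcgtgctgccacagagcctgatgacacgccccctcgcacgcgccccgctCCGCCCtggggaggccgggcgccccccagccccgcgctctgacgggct
Ltbp2: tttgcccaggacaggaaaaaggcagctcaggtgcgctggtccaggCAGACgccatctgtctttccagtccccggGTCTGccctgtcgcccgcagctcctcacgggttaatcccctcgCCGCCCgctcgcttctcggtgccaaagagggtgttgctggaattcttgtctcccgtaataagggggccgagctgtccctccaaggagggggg
The 250 bases of Fbln5 held 2 GC boxes and 0 Smad boxes. The 209 bases of Ltbp2 held 1 GC box and 2 Smad boxes, with no overlap between motifs. Of 32851 promoters in the same table, 32.7% had a GC box in a window of 250 bases and 26.5% in one of 209 bases. A Smad box stood in 42.2% and 37.1% of them, a TATA box in 12.4% and 9.51%, and an AP-1 site in 6.75% and 5.82%. The matches describe letters only.

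Total counts ran from 3906807 to 18494156 per library. The labels carry 3 batch dates, 25 March 2025 for 9 libraries, 24 October for 14 and 1 November for 1, without saying what was done on them. All 3 RIC+DE libraries are dated March and all 3 DE libraries October. DE+RIC 3 is the sole November library, so in a model with a term for batch it adds nothing to the DE+RIC estimate. Lung genes were present in every library, with Scgb1a1 of club cells at 15676 to 156877 CPM (read count scaled to library size) and Sftpc of alveolar type II cells at 6988 to 68172 CPM. The library RIC+DE+PFD 1 stood apart: its 100 most abundant genes took 39.6% of counts against 18.1% to 29.7% in the other 23. Its deviations from the gene means correlated with exon length at rho = -0.551 across 16269 genes, against -0.294 to 0.472 in the others, so long transcripts tended to be low there, and Fbn1, Fbn2, Ltbp2 and Eln are the members with the most exonic sequence. Skeletal muscle markers summed to 2028 CPM in RIC+DE 1 and 1066 CPM in RIC+DE 3, against at most 48.1 CPM elsewhere, and cardiac muscle markers to 3859 CPM in RIC+DE 1. In DE 1, adipocyte markers summed to 1827 CPM. In C 1, 8 smooth muscle markers summed to 639 CPM against 1526 and 1568 in C 2 and C 3.

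Levels between genes were compared as CPM per kilobase of exon (CPM per kb), averaged over the 24 libraries. Mfap4, a microfibril-associated glycoprotein, was the most abundant at 332 ± 99.5 (SD, n = 24). Loxl1, the lysyl oxidase most closely tied to elastin upkeep, followed at 37.9 ± 12.0 and Eln at 36.5 ± 16.0. Fbln5 stood at 18.2 ± 2.23, Mfap5, a small microfibril glycoprotein, at 11.5 ± 2.92, and Ltbp2, a fibrillin-like matrix protein of the latent TGF-beta binding family, at 11.2 ± 4.02 CPM per kb. The order continued with Lox, the founding lysyl oxidase, at 7.18 ± 2.13, Fbn1, the main adult fibrillin, at 7.0 ± 2.04, and Loxl2, a crosslinker known mainly from collagen, at 2.93 ± 0.740. Fbn2, the fibrillin of developing tissue, stood at 0.0466 ± 0.0332 CPM per kb, from 1 to 21 reads per library. Of the 9 better measured members, the highest library held 1.69 times the CPM of the lowest for Fbln5 and 5.98 times for Ltbp2, with Fbn1 at 5.47 and Eln at 5.17 times. The lowest value of both Ltbp2 and Fbn1 was that of RIC+DE+PFD 1. Without it Ltbp2 ran from 51.1 to 137 CPM and Eln, lowest in RIC+DE+PFD 2, still from 117 to 606 CPM.

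All levels below are CPM scaled by TMM, which compare libraries and not genes. Eln was at 132, 449 and 456 CPM in the 3 libraries of C, at 337, 369.7 and 606 in RIC, at 457, 169.9 and 364 in DE and at 332, 367 and 295 in DE+PFD. It was at 189, 143 and 319 in RIC+DE, at 273, 218 and 263 in DE+RIC, at 128, 117 and 201 in RIC+DE+PFD and at 275, 456 and 177 in DE+PFD+RIC. The lowest mean was that of RIC+DE+PFD, 149 ± 45.3 (SD, n = 3), and the highest that of RIC, 437 ± 147. The low value of C, 132 CPM, was that of C 1, the library with few smooth muscle markers, whose part was not tested. In the order of group means (RIC, C, DE+PFD, DE, DE+PFD+RIC, DE+RIC, RIC+DE, RIC+DE+PFD), all 7 pairs of neighbours overlapped in their libraries and 0 differed by more than the larger SD.

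**Figure D1:**
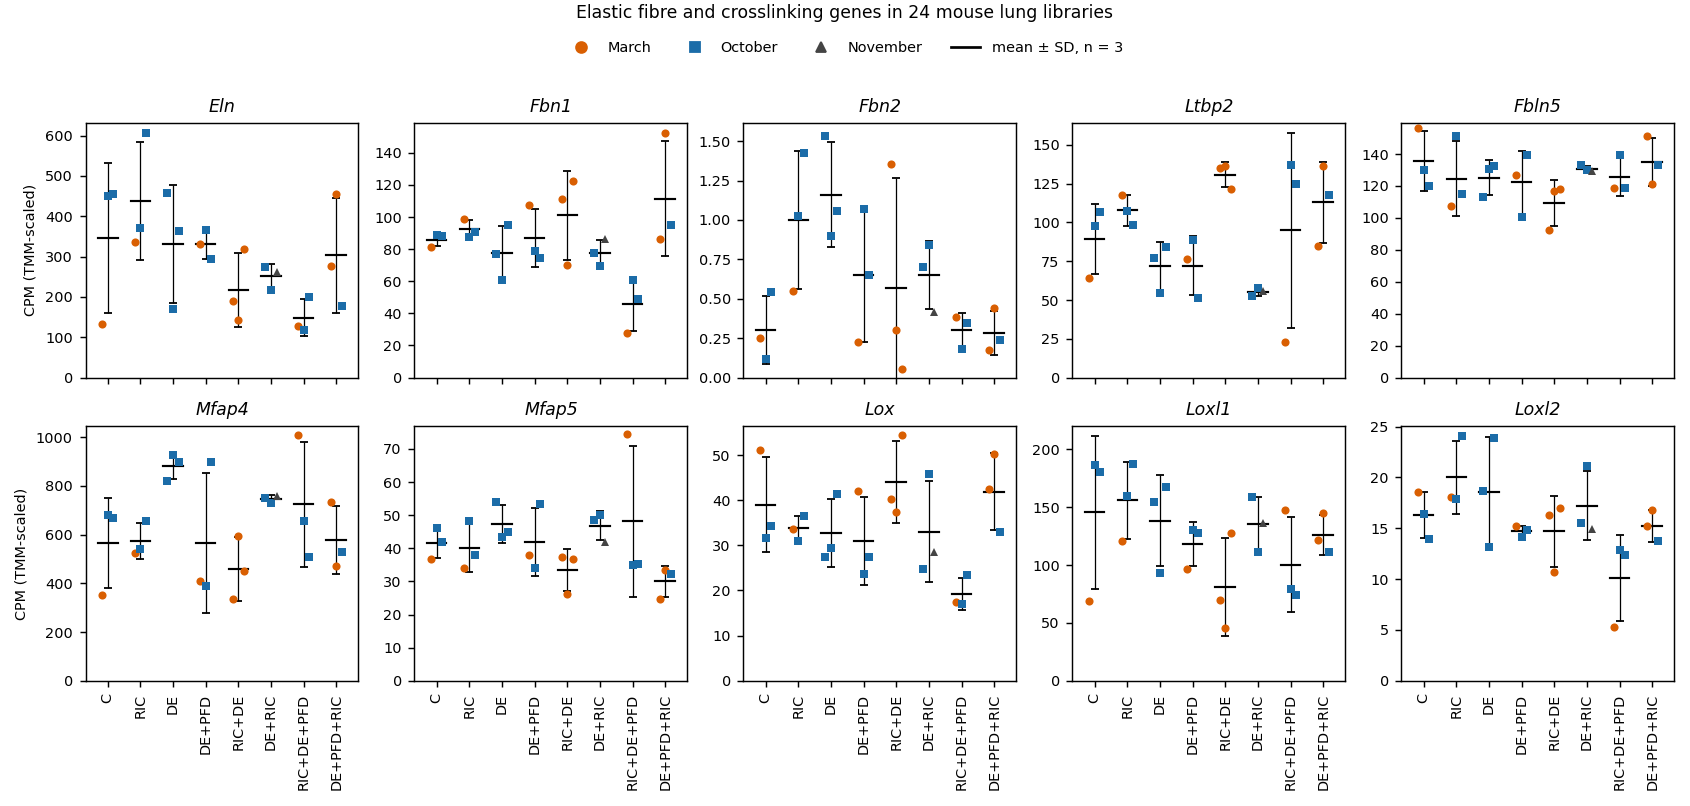
CPM (TMM-scaled, linear axis from 0) of the 10 genes in 24 lung libraries by group, with March libraries as orange circles, October libraries as blue squares and the November library as a grey triangle; the black line and bar are the mean and SD of 3 libraries, and the bar is cut where it would pass below 0. Fbn1 and Lox are lower in all 3 RIC+DE+PFD libraries than in any of the other 21, while Fbln5 stays between 92.5 and 156 CPM. The gaps are narrow, 60.66 against 60.76 CPM for Fbn1 and 23.41 against 23.54 CPM for Lox. That of Fbn1 is absent with the gene length trend removed, and the share of all genes so placed was not counted.

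Among the microfibril genes, Fbn1 was at 27.9, 60.7 and 48.8 CPM in RIC+DE+PFD, below all of the other 21 libraries, of which the lowest was DE 2 at 60.8 CPM. The means of the other 7 groups lay between 77.5 ± 17 in DE and 111 ± 35.7 in DE+PFD+RIC. C was at 81.3, 88.6 and 87.9 CPM and RIC at 99.0, 87.4 and 90.7, so both unexposed groups were narrow. DE and RIC+DE+PFD were the only neighbours in the order of Fbn1 that did not overlap. With each library's trend on gene length removed, Fbn1 was at 55.4, 61.3 and 52.3 CPM in RIC+DE+PFD, and RIC+DE 2 lay among them at 57.8. The share of all genes wholly below the other 21 libraries was not counted. Fbn2 had means from 0.284 ± 0.139 CPM in DE+PFD+RIC to 1.16 ± 0.332 in DE, with C at 0.303 ± 0.215 and RIC at 1.00 ± 0.437. At so few reads the counting error of Fbn2 is large.

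Ltbp2 was at 135, 136 and 121 CPM in RIC+DE and at 52.4, 57.9 and 55.8 in DE+RIC, the groups with the highest and the lowest mean (131 ± 8.34 and 55.4 ± 2.74). RIC+DE+PFD by contrast split into 22.9 CPM in library 1 and 137 and 125 in libraries 2 and 3, so the lowest and the highest value of all 24 stood in 1 group. C was at 64.0, 97.4 and 107, RIC at 118, 107 and 98.1, DE at 76.9, 54.3 and 84.0, DE+PFD at 76.7, 88.8 and 51.1, and DE+PFD+RIC at 84.8, 136 and 118 CPM. All 7 pairs of neighbouring groups overlapped.

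Mfap4 was at 820.4, 927 and 899 CPM in DE, above every library of C (352, 679 and 667) and of RIC (525, 539 and 657). DE+PFD held 411, 389 and 897 CPM, so 2 of its libraries were below every DE library and 1 lay inside the DE range. RIC+DE was lowest at 334, 596 and 451 CPM, DE+RIC was narrow at 749, 731 and 759.8, RIC+DE+PFD ran from 507 to 1009 and DE+PFD+RIC from 472 to 734. DE and DE+RIC, the top neighbours, did not overlap, and the other 6 pairs did. Mfap5 had group means from 30.0 ± 4.69 CPM in DE+PFD+RIC to 48.1 ± 22.7 in RIC+DE+PFD, where library 1 stood at 74.4 and the others at 34.8 and 35.2. Library RIC+DE+PFD 1 held the highest value of both Mfap4 and Mfap5, whose transcripts are short.

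Fbln5, the fibulin that guides elastin onto microfibrils, had the smallest range. Its group means lay between 109 ± 14.5 CPM in RIC+DE and 135 ± 18.8 in C. All 7 neighbouring pairs of groups overlapped.

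Among the crosslinking enzymes, Lox was at 17.5, 16.9 and 23.4 CPM in RIC+DE+PFD, again below all of the other 21 libraries, the lowest of which was DE+PFD 2 at 23.5 CPM. C was at 51.1, 31.7 and 34.2 CPM, DE at 27.4, 29.4 and 41.3, DE+PFD at 42.0, 23.5 and 27.4 and RIC+DE at 40.2, 37.5 and 54.5. The mean of RIC+DE+PFD was 19.3 ± 3.60 and the highest, that of RIC+DE, was 44.0 ± 9.14. How many of all genes lay below the other 21 libraries in this way was not counted. Loxl2 was at 5.27, 12.8 and 12.3 CPM in RIC+DE+PFD and had means of 14.7 to 20.0 CPM in the other 7 groups. Loxl1 had its lowest mean in RIC+DE, where Lox was highest (69.9, 45.6 and 128 CPM, mean 81.0 ± 42.1), and its highest in RIC (156 ± 33.3).

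With the edgeR quasi-likelihood test, 0 of the 10 members passed a Benjamini-Hochberg adjusted p of 0.05 in any of the 9 comparisons of groups, in the 2 interactions of pirfenidone with conditioning, in the test across the 8 groups or in October minus March. Of all 17490 genes, 0% passed in each of the first 12 tests and 0.00572% in October minus March. DESeq2 called 1 member, Fbn1, in 1 of the 13 tests, the interaction of pirfenidone with preconditioning. The differences below are therefore given as values with their standard errors (SE), with the members at an unadjusted p under 0.05 counted beside the share of all genes there. Of the 9 comparisons, 6 use the DE libraries and the comparisons with DE+PFD use those of 1 group, so they are not independent of each other.

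**Figure D2:**
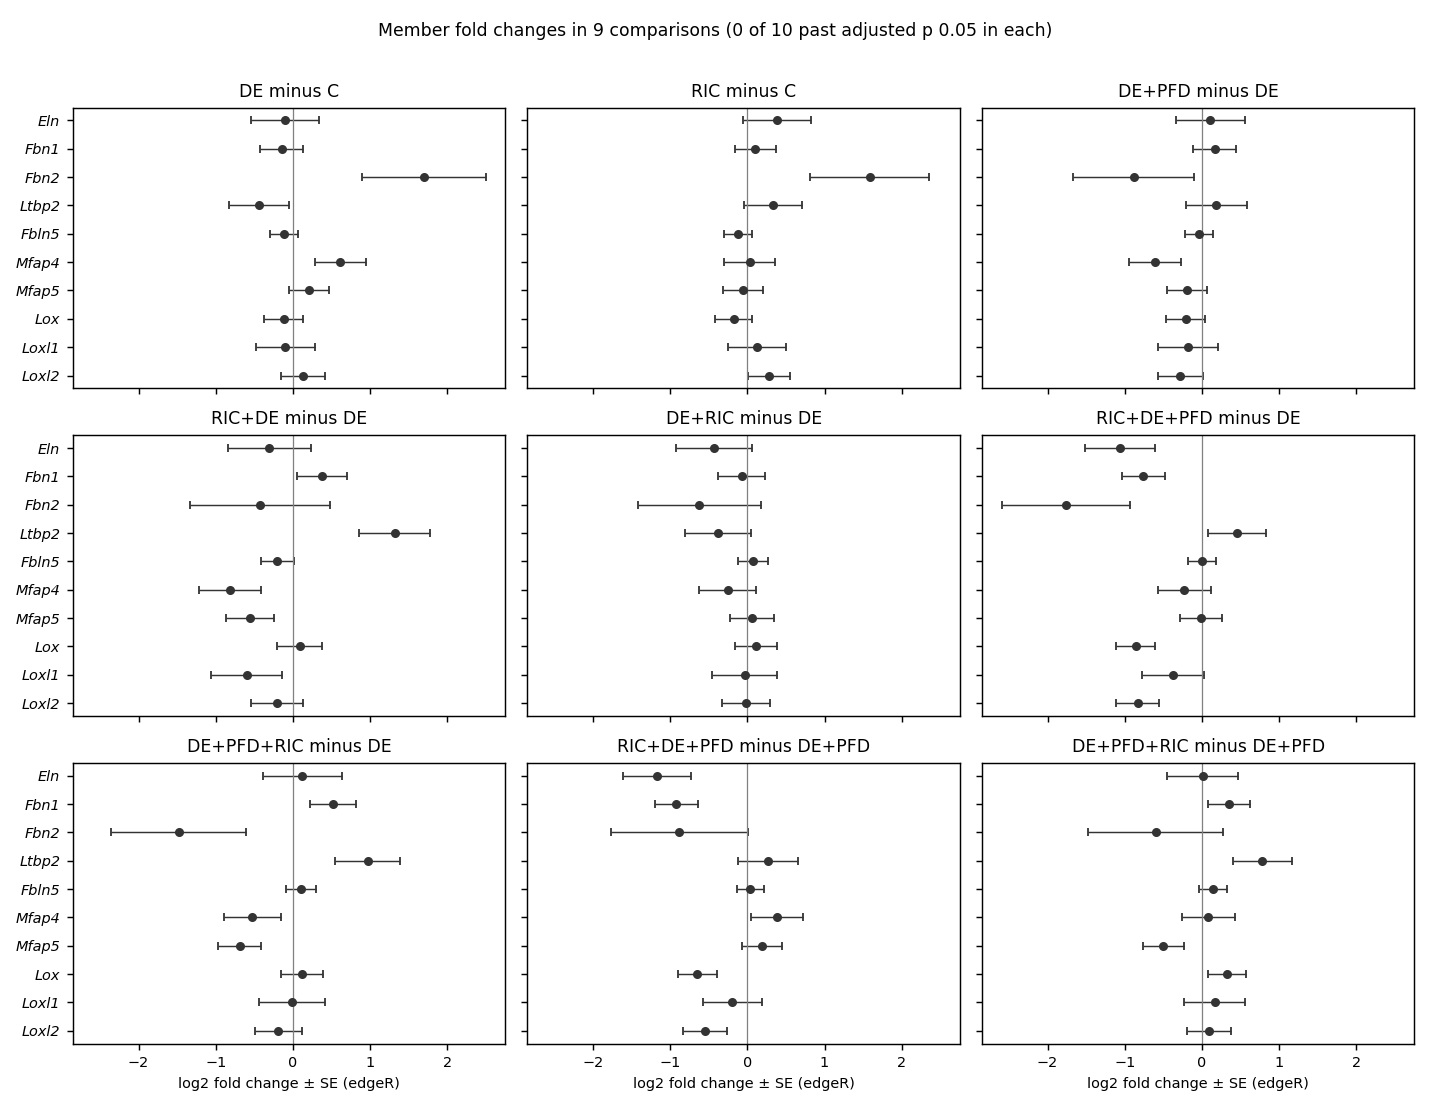
Log2 fold change with SE (edgeR, all 24 libraries, group and batch terms) of the 10 genes in each of 9 comparisons, 1 panel each on a shared axis. Fbn2 has the widest bars and Fbln5 the narrowest, and the points of Eln, Fbn1, Lox and Loxl2 lie left of 0 by more than their SE in both panels that begin with RIC+DE+PFD.

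Exhaust against control addressed what the exposure did on its own. Mfap4 and Fbn2 were the members whose 3 DE libraries all lay above the 3 C libraries, and no member lay wholly below, against 7.6% of all genes wholly above and 6.86% wholly below. Mfap4 had a log2 fold change of 0.61 ± 0.33 (SE; adjusted p = 0.988 in edgeR). Fbn2 had 1.69 ± 0.80 (adjusted p = 0.988), the only member at an unadjusted p under 0.05, where 3.33% of all genes stood. DESeq2 called 0 members and 0.042% of the genes it tested. For Eln the value was -0.11 ± 0.44, for Lox -0.12 ± 0.25, for Loxl1 -0.099 ± 0.38 and for Ltbp2 -0.44 ± 0.38. Fbn1, Fbln5, Mfap5 and Loxl2 lay between -0.15 and 0.21. The median of the 10 was -0.10 with 4 above 0, beside a median of 0.00 over all genes. Without C 1 the value of Mfap4 was 0.39 and that of Eln -0.46.

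Other lists give the rest of the pathway. Of 18 further fibre genes (other fibulins, emilins, latent TGF-beta binding proteins, Loxl3, Loxl4, microfibril-associated ADAMTS proteins and others), 6 were above 0 and 12 below in DE minus C, with a median of -0.19. The smallest p belonged to the elastin interface protein Emilin2 (-0.68 ± 0.34, adjusted p = 0.988) and to fibulin-1, Fbln1 (-0.49 ± 0.26, adjusted p = 0.988). Of 7 genes that process or serve lysyl oxidases, 2 were above 0 and 5 below, led by the convertase Furin (-0.45 ± 0.19, adjusted p = 0.988) and fibronectin, Fn1 (-0.33 ± 0.31). Of 8 measured genes of elastin-degrading enzymes, 1 was above 0 and 7 were below, with proteinase 3, Prtn3, at -0.86 ± 0.49 and cathepsin K, Ctsk, at -0.56 ± 0.43. Of 6 inhibitors, 4 were above 0, led by Timp4 (1.04 ± 0.42, adjusted p = 0.988) and Serpina3n (0.35 ± 0.19). In these lists 0 genes passed in edgeR in any of the 13 tests, and DESeq2 called 0 in the 9 comparisons of groups. Adipocyte markers summed to 238 to 1827 CPM in DE against 96.7 to 206 in C, with all 7 above 0 and 6 at an unadjusted p under 0.05. The sums of mesothelial markers (250.3 to 276 against 159 to 193 CPM, 5 of 6 genes above 0) and of adventitial fibroblast markers (662 to 835 against 617 to 634 CPM, 6 of 7 above 0) also lay wholly above C. Those of large vessel endothelial (600.0 to 798 against 863 to 1067 CPM, 1 of 6 above 0) and myofibroblast markers (269 to 365 against 366 to 408 CPM, 2 of 6 above 0) lay wholly below. The part of these lists in the values of the members was not tested.

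Conditioning of unexposed mice, RIC against C, had 0 members at an unadjusted p under 0.05, where 1.2% of all genes stood. Calls by DESeq2 were 0 among the members and 0.00969% of its genes. No member lay wholly below C, where 2.67% of all genes did. Fbn2 lay wholly above it, as 2.24% did, with a log2 fold change of 1.59 ± 0.77 (adjusted p = 1.00). Eln was at 0.38 ± 0.44 and Loxl1 at 0.12 ± 0.38, and both values were negative without C 1, at -0.057 and -0.26. The remaining members lay between -0.18 (Lox) and 0.33 (Ltbp2). Of the 18 further fibre genes 14 were above 0, with a median of 0.072, and Adamts10 (0.38 ± 0.27) and Adamtsl4 (0.32 ± 0.23) had the smallest p. Tll1, a protease of the family that activates lysyl oxidases, was at -0.88 ± 0.38 (adjusted p = 1.00) and Bmp1 of the same family at 0.31 ± 0.24. The elastase genes Ctsk (-0.96 ± 0.42, adjusted p = 1.00) and Ctss (-0.34 ± 0.23) were below 0. Of the inhibitors, Timp4 was at 0.74 ± 0.41 and Slpi at -0.38 ± 0.53. Adventitial fibroblast markers summed to 651 to 680.4 CPM in RIC and 617 to 634 in C, with 5 of 7 above 0, and their part was not tested.

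Pirfenidone in exposed mice, DE+PFD against DE, separated no member, where 5.89% of all genes lay wholly above and 5.28% wholly below. The count of members at an unadjusted p under 0.05 was 0, beside 2.84% of all genes. The DESeq2 count was 0, beside 0.0411% of its genes. Mfap4 had the smallest p of the 10 at -0.61 ± 0.34 (adjusted p = 1.00), with the split of the 3 drug libraries given above. The fold change of Eln was 0.11 ± 0.45 on the log2 scale, of Lox -0.21 ± 0.26, of Loxl1 -0.18 ± 0.39 and of Loxl2 -0.28 ± 0.29. The other members lay between -0.88 (Fbn2) and 0.19 (Ltbp2). The median of the 10 was -0.19 with 3 above 0. Of the further fibre genes 16 of 18 were above 0, with a median of 0.20. Vtn, the adhesive protein vitronectin, was at -0.62 ± 0.27 (adjusted p = 1.00) and Adamtsl4 at 0.42 ± 0.24. Atp7a, the copper transporter that loads lysyl oxidases, was at 1.00 ± 0.57 and Furin at 0.28 ± 0.19. Among elastases Prtn3 was at 0.98 ± 0.51 and cathepsin L, Ctsl, at -0.15 ± 0.16, and among inhibitors Timp3 was at 0.21 ± 0.36 and Slpi at -0.25 ± 0.54.

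Preconditioning in exposed mice, RIC+DE against DE, had the largest log2 fold change of Ltbp2 among the 9 comparisons. All 3 RIC+DE libraries (121 to 136 CPM) lay above all 3 DE libraries (54.3 to 84.0 CPM), and the value was 1.32 ± 0.46 (adjusted p = 0.274). Mfap4 (-0.82 ± 0.40, adjusted p = 0.295) and Mfap5 (-0.55 ± 0.31, adjusted p = 0.334) lay wholly below DE. In this comparison 21% of all genes lay wholly above and 20.6% wholly below, and 17.3% stood at an unadjusted p under 0.05, so the members' counts (1 wholly above, 2 wholly below, 1 at that p) are near the background. All RIC+DE libraries are of March and all DE libraries of October, so the estimate leans on the batch term, which the other groups supply. Without that term the value for Ltbp2 was 0.87 (adjusted p = 0.167). Without RIC+DE+PFD 1, a library outside the comparison that enters the batch term, it was 0.96 (adjusted p = 0.205). Mfap4 stood in the same fits at -0.94 and -0.54. Also without RIC+DE+PFD 1, Mfap5 was at -0.26, Loxl1 at -0.25, Loxl2 at -0.42, Fbn1 at 0.17, Fbn2 at -0.21 and Lox at -0.022. When the trend with gene length of each library was removed, Ltbp2 stood at 1.09 and Mfap4 at -0.43. DESeq2 called 0 members, beside 0.164% of its genes. Eln was at -0.30 ± 0.54, Fbn1 at 0.38 ± 0.33, Lox at 0.090 ± 0.29 and Loxl1 at -0.60 ± 0.46, and Fbn2, Fbln5 and Loxl2 lay between -0.43 (Fbn2) and -0.20 (Fbln5).

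Of the further fibre genes, 14 of 18 were above 0 in RIC+DE minus DE, with a median of 0.72 beside 0.00 over all genes. At an unadjusted p under 0.05 stood 7 of them and 1 in the other direction, beside 17.3% of all genes in either direction. These values lean on the batch term as those of the members do. What they were without it, or without RIC+DE+PFD 1, is not given here. Emilin2 (1.16 ± 0.40, adjusted p = 0.274) and Fbln1 (0.85 ± 0.31, adjusted p = 0.274) had the smallest p. Of the lysyl oxidase partners 6 of 7 were above 0, among them Fn1 (0.97 ± 0.37, adjusted p = 0.274) and Bmp1 (0.75 ± 0.29, adjusted p = 0.274). The elastase genes Ctsl (-0.52 ± 0.19, adjusted p = 0.274) and Ctss (-0.66 ± 0.28, adjusted p = 0.274) were below 0, and so were the inhibitors Timp1 (-1.24 ± 0.43, adjusted p = 0.274) and Serpina3n (-0.45 ± 0.23). Skeletal muscle markers summed to 27.8 to 2028 CPM in RIC+DE and 28.7 to 48.1 in DE, with all 6 measured genes above 0 and Myh4 at 0 in all DE libraries. Large vessel endothelial markers summed to 917 to 1339.7 CPM against 600.0 to 798, with 4 of 6 above 0. Myofibroblast markers summed to 401 to 455 against 269 to 365 CPM (3 of 6 above 0) and mesothelial markers to 168 to 232 against 250.3 to 276 CPM (4 of 6 above 0). Lung markers (epithelial genes with Pecam1 and Cldn5 of endothelium) summed to 29133 to 49774 against 62018 to 101717 CPM (0 of 9 above 0). The part of these lists in the values of Ltbp2, Mfap4 and Mfap5 was not tested.

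Perconditioning, DE+RIC against DE, had small differences. Apart from Fbn2 (-0.62 ± 0.80) all log2 fold changes lay between -0.43 ± 0.49 (Eln) and 0.11 ± 0.27 (Lox), and 0 members stood at an unadjusted p under 0.05, beside 3.23% of all genes. By DESeq2 the count was also 0, beside 0.0399% of its genes. These estimates use DE+RIC 1 and 2, since the November library has its own term. Over all 3 libraries Fbn2 and Mfap4 lay wholly below DE, as 6.03% of all genes did, and no member wholly above, where 6.31% did. Ltbp2 was at -0.38 ± 0.43. The further fibre genes were split 9 and 9 around a median of 0.00, with Loxl4 at -1.23 ± 0.63 (adjusted p = 1.00) and Vtn at -0.42 ± 0.29. Bmp1 was at 0.13 ± 0.27, Tll1 at -0.11 ± 0.43, the macrophage elastase Mmp12 at 0.63 ± 0.66, Mmp14 at -0.19 ± 0.28, Timp4 at -0.51 ± 0.46 and Slpi at 0.54 ± 0.58. Adipocyte markers summed to 91.5 to 158 CPM against 238 to 1827 in DE and cardiac muscle markers to 421 to 487 against 879 to 1451 CPM, with 0 of 7 and 0 of 7 above 0, and their part was not tested.

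Preconditioning with pirfenidone had the most members at an unadjusted p under 0.05. Against DE, RIC+DE+PFD had 5 of 10 there, all with negative values, beside 9.52% of all genes in either direction and 5.52% with negative values. With DESeq2 the count was 0, beside 0.313% of its genes. Lox was at -0.86 ± 0.25 (adjusted p = 0.330), Loxl2 at -0.83 ± 0.28 (adjusted p = 0.400) and Fbn1 at -0.76 ± 0.28 (adjusted p = 0.437). Eln was at -1.06 ± 0.45 (adjusted p = 0.494) and Fbn2 at -1.76 ± 0.83 (adjusted p = 0.519). Fbn1, Fbn2, Lox and Loxl2 lay wholly below DE, as 6.41% of all genes did, and no member wholly above, where 5.55% did, while Eln overlapped through DE 2 at 169.9 CPM. The other members were Ltbp2 at 0.45 ± 0.38, Fbln5 at 0.00 ± 0.18, Mfap4 at -0.23 ± 0.35, Mfap5 at -0.01 ± 0.27 and Loxl1 at -0.38 ± 0.40. The median of the 10 was -0.57 with 2 above 0, beside 0.043 over all genes.

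Against DE+PFD, which holds the drug constant, RIC+DE+PFD had 3 of 10 members at an unadjusted p under 0.05, all with negative values, beside 17.4% of all genes in either direction and 6.68% with negative values. With DESeq2 the count was 0, beside 0.988% of its genes. These were Fbn1 at -0.92 ± 0.28 (adjusted p = 0.235), Eln at -1.17 ± 0.44 (adjusted p = 0.248) and Lox at -0.65 ± 0.25 (adjusted p = 0.248), with Loxl2 at -0.55 ± 0.28 (adjusted p = 0.311). Eln, Fbn1, Lox and Loxl2 lay wholly below DE+PFD, where 6.99% of all genes did, and no member wholly above, where 5.88% did. Ltbp2 was at 0.26 ± 0.38 and Mfap4 at 0.38 ± 0.33, and the rest lay between -0.88 (Fbn2) and 0.19 (Mfap5). This comparison and the one with DE share the RIC+DE+PFD libraries.

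Library RIC+DE+PFD 1 moved some of these values more than others. Without it, against DE, Eln was at -1.07 (adjusted p = 0.355), Lox at -0.71 (adjusted p = 0.240), Loxl2 at -0.57 (adjusted p = 0.317) and Fbn1 at -0.51 (adjusted p = 0.363). Fbn1 and Loxl2 thus came nearer to 0 and Eln hardly moved, and Fbn1 was no longer at an unadjusted p under 0.05. Ltbp2, low in that library, stood at 0.86 (adjusted p = 0.139) without it, and Loxl1, Mfap4 and Mfap5 at -0.86, -0.61 and -0.45. Of these Ltbp2, Loxl1 and Mfap5 came to an unadjusted p under 0.05, so the members there no longer all had negative values. Against DE+PFD without that library, Eln was at -1.17 (adjusted p = 0.512), Fbn1 at -0.59 (adjusted p = 0.497), Lox at -0.45 (adjusted p = 0.633) and Loxl2 at -0.20 (adjusted p = 0.863). Lox was then no longer at an unadjusted p under 0.05. Ltbp2 stood at 0.83, Loxl1 at -0.79, Mfap4 at -0.075 and Mfap5 at -0.35 there. Of these Ltbp2 and Loxl1 came to an unadjusted p under 0.05. The share of all genes at that p was not counted in either fit. With the length trend of each library removed, against DE, Lox was at -0.87, Loxl2 at -0.83, Eln at -0.90 and Fbn1 at -0.57. Eln and Fbn2 (-1.57) were then no longer at an unadjusted p under 0.05. Against DE+PFD the same fit had Eln at -0.88, Fbn1 at -0.59 and Lox at -0.63, and Eln was again no longer at that p.

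**Figure D3:**
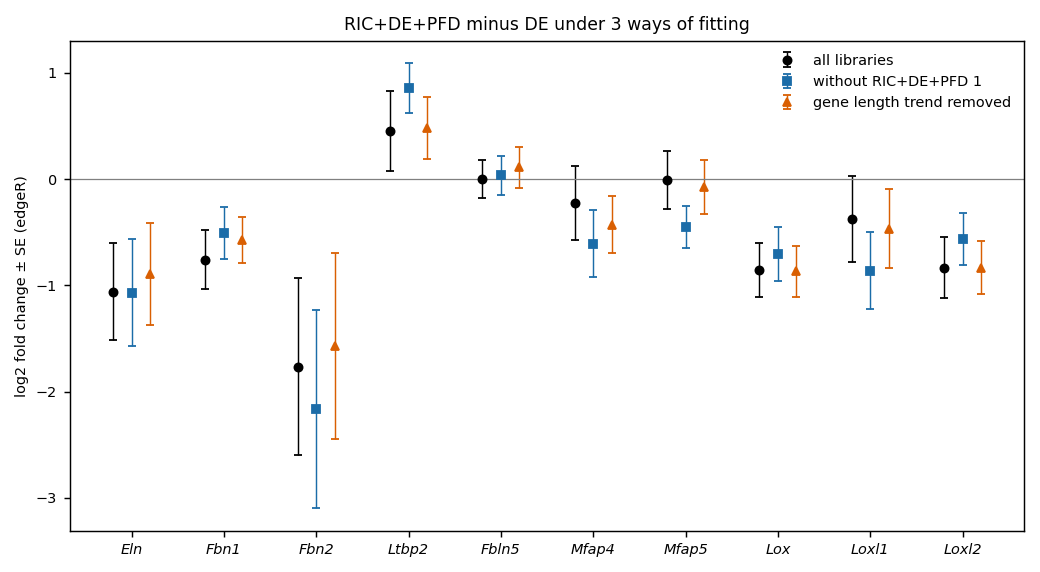
Log2 fold change with SE (edgeR) of the 10 genes in RIC+DE+PFD minus DE from all libraries, without library RIC+DE+PFD 1, and with each library's trend on gene length removed. Eln, Fbn1, Fbn2, Lox and Loxl2 lie below 0 in all 3, and Ltbp2, Mfap4, Mfap5 and Loxl1 lie farther from 0 when the library is left out.

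Among the other fibre genes Efemp2, which encodes fibulin-4, a partner of lysyl oxidase in elastin assembly, was at 0.65 ± 0.22 (adjusted p = 0.398) against DE and at 0.60 ± 0.21 (adjusted p = 0.248) against DE+PFD. Adamts17 was at -0.78 ± 0.46 and -0.98 ± 0.44. In the list of 18, 10 were above 0 against DE and 4 against DE+PFD, with medians of 0.031 and -0.13. The list summed to 940 CPM in RIC+DE+PFD 1 and to 2408 and 2412 CPM in libraries 2 and 3. Its values without RIC+DE+PFD 1 are not given here. The copper chaperone Atox1 was at 0.71 ± 0.42 and 0.97 ± 0.40, Atp7a at 0.72 ± 0.54 against DE and periostin, Postn, at -0.18 ± 0.26 against DE+PFD. Of the elastases, Prtn3 was at 1.40 ± 0.48 (adjusted p = 0.404) against DE, Mmp14 at -0.56 ± 0.25 and -0.76 ± 0.25, and Mmp2 at -0.68 ± 0.27 against DE+PFD. Serpina3n was at -0.38 ± 0.19 and -0.32 ± 0.19 and Timp2 at 0.21 ± 0.17 and 0.29 ± 0.17. The sum of 8 smooth muscle markers was 1353 to 1641 CPM in RIC+DE+PFD and 1416 to 1649 in DE, with 4 above 0. That of 6 myofibroblast markers was 240.0 to 324 against 269 to 365 CPM, with 2 above 0, and in DE+PFD it was 345 to 563 CPM, wholly above RIC+DE+PFD, with 1 of 6 above 0 in that comparison. The sum of 7 adipocyte markers was 133 to 358 against 238 to 1827 CPM, with 0 above 0. The sum of 6 large vessel endothelial markers was 341 CPM in RIC+DE+PFD 1 and 1121 and 1034 in the others. Their part in the values of Eln, Fbn1 and Lox was not tested.

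Perconditioning with pirfenidone, DE+PFD+RIC, had other members at the front. Against DE, Ltbp2 was at 0.97 ± 0.42 (adjusted p = 0.526) and Mfap5 at -0.69 ± 0.28 (adjusted p = 0.526), 2 of 10 members at an unadjusted p under 0.05 beside 9.23% of all genes. DESeq2 called 0 members and 0.0431% of the genes it tested. Ltbp2 lay wholly above DE, as 15.4% of all genes did, and Fbn2, Mfap4 and Mfap5 lay wholly below, as did 12.8%. Eln was at 0.12 ± 0.51, Fbn1 at 0.52 ± 0.30 and Lox at 0.12 ± 0.27, with the rest between -1.48 (Fbn2) and 0.11 (Fbln5). With October libraries alone, which leaves 1 library of DE+PFD+RIC, Eln was at -0.92. Since 2 libraries of DE+PFD+RIC are of March, the batch term enters this comparison too. Without RIC+DE+PFD 1, Ltbp2 was at 0.71, Mfap5 at -0.50, Mfap4 at -0.33 and Loxl1 at 0.24. With no batch term Ltbp2 was at 0.66, no longer at an unadjusted p under 0.05, and Mfap5 at -0.66. Against DE+PFD, 0 members stood at an unadjusted p under 0.05, beside 4.26% of all genes, with Ltbp2 at 0.78 ± 0.38 (adjusted p = 0.903) and Mfap5 at -0.50 ± 0.27 (adjusted p = 0.903) and the rest between -0.60 (Fbn2) and 0.35 (Fbn1). Mfap5 lay wholly below DE+PFD, where 5.36% of all genes did, and no member wholly above, where 6.46% did. DESeq2 called 0 members here, beside 0.0194% of its genes.

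In the same group Ltbp4, the latent TGF-beta binding protein that supports elastin assembly, was at 1.16 ± 0.42 (adjusted p = 0.526) against DE and 0.97 ± 0.39 (adjusted p = 0.903) against DE+PFD. Adamtsl4 was at 0.73 ± 0.26 (adjusted p = 0.526) against DE and Ltbp3 at 0.45 ± 0.24 against DE+PFD. Fn1 was at 0.91 ± 0.34 and 0.84 ± 0.31, Furin at 0.59 ± 0.20 and 0.30 ± 0.19, and Timp1 at -1.03 ± 0.41 and -0.95 ± 0.37. Timp2 was at 0.25 ± 0.19 and 0.33 ± 0.17. Ctsl was at -0.28 ± 0.17 and Ctsk at 0.60 ± 0.48 against DE, and Ctss at -0.36 ± 0.23 and Mmp2 at -0.33 ± 0.27 against DE+PFD. Of the 18 further fibre genes 15 were above 0 against DE and 14 against DE+PFD. Large vessel endothelial markers summed to 1029 to 1206 CPM in this group and 600.0 to 798 in DE, with 5 of 6 above 0. Myofibroblast markers lay wholly above DE (376 to 582 against 269 to 365 CPM, 3 of 6 above 0). Smooth muscle markers, at 1145 to 1201 CPM, lay wholly below DE (1416 to 1649 CPM) and DE+PFD (1426 to 1608 CPM), with 3 of 8 above 0 in both comparisons. The part of these lists in the values of Ltbp2 and Mfap5 was not tested.

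The interaction of pirfenidone with preconditioning, (RIC+DE+PFD minus RIC+DE) minus (DE+PFD minus DE), addressed whether the difference with the drug depended on conditioning. Fbn1 had the smallest p of the members at -1.30 ± 0.45 (adjusted p = 0.0865), and Mfap4 was at 1.2 ± 0.50 (adjusted p = 0.135), 2 of 10 beside 27.2% of all genes at an unadjusted p under 0.05. DESeq2 called Fbn1 (-1.29, adjusted p = 0.0427), as it did 10.8% of the genes it tested. Without RIC+DE+PFD 1 the value of Fbn1 was -0.76 (adjusted p = 0.921 in edgeR) and that of Mfap4 0.46. With the length trend removed they were -0.60 and 0.53. Eln was at -0.87 ± 0.70, Lox at -0.74 ± 0.39 and Ltbp2 at -1.06 ± 0.63, of which Lox stood at -0.43 and Ltbp2 at -0.13 without RIC+DE+PFD 1. The other members lay between -0.46 (Fbn2) and 0.74 (Mfap5), and Mfap5, Loxl1 and Loxl2 had the opposite sign without that library. Of the further fibre genes 15 of 18 were below 0, with a median of -0.84, while Efemp2 was at 1.00 ± 0.32 and Vtn at 1.21 ± 0.40. These 18 genes summed to 940 CPM in RIC+DE+PFD 1 and to 2408 and 2412 CPM in libraries 2 and 3 of that group. Atox1 was at 2.15 ± 0.58 (adjusted p = 0.0742), Furin at -0.64 ± 0.29, Ctsl at 0.75 ± 0.25, Mmp14 at -0.93 ± 0.40, Timp1 at 1.25 ± 0.55 and Timp3 at -0.44 ± 0.57. In this interaction DESeq2 called 2 of the further fibre genes, 1 lysyl oxidase partner, 1 elastase gene and 0 inhibitors. What the values and calls of these lists were without RIC+DE+PFD 1 is not given here.

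The interaction with perconditioning had 0 members at an unadjusted p under 0.05, beside 2.69% of all genes, and DESeq2 called 0, beside 0.0211% of its genes. Ltbp2 was at 1.16 ± 0.57 (adjusted p = 1.00), and the other members lay between -0.56 (Mfap5) and 0.44 (Eln). Loxl4 was at 1.58 ± 0.81, Ltbp4 at 0.94 ± 0.57, Fn1 at 0.93 ± 0.47, Furin at 0.28 ± 0.28, Ctss at -0.32 ± 0.34, Mmp14 at 0.26 ± 0.37, Timp1 at -0.91 ± 0.54 and Slpi at -0.77 ± 0.79. Across the 8 groups, Lox (adjusted p = 0.290) and Fbn1 (adjusted p = 0.292) had the smallest p of the members in edgeR, 2 of 10 beside 14.4% of all genes at an unadjusted p under 0.05, and 0 of 10 were called by DESeq2, beside 6.09% of its genes. Next came Ltbp2 (adjusted p = 0.379) and Eln (adjusted p = 0.428), and Fbln5 was last (adjusted p = 0.881). In the other lists Efemp2 (adjusted p = 0.279), Atox1 (adjusted p = 0.279), Timp1 (adjusted p = 0.376), Mmp14 (adjusted p = 0.383), Prtn3 (adjusted p = 0.386), Fn1 (adjusted p = 0.386), Mfap2 (adjusted p = 0.459) and Slpi (adjusted p = 0.496) led in edgeR, and DESeq2 called Efemp2 (adjusted p = 0.0117) and Atox1 (adjusted p = 0.00923) of these.

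Between the batch dates, Lox was at -0.34 ± 0.16 (adjusted p = 0.333) in October minus March and Ltbp2 at 0.45 ± 0.27 (adjusted p = 0.447), 1 of 10 members at an unadjusted p under 0.05 beside 14.8% of all genes, and DESeq2 called 0, beside 3.12% of its genes. The other members lay between -0.052 (Mfap5) and 0.62 (Fbn2). Without RIC+DE+PFD 1, Ltbp2 was at 0.071, Lox at -0.48, Loxl1 at 0.50, Mfap4 at 0.38 and Fbn1 at -0.24. Ltbp3 was at 0.53 ± 0.16 (called by DESeq2, adjusted p = 0.0336), Emilin2 at 0.72 ± 0.22, Atp7a at -0.96 ± 0.35 and Bmp1 at 0.39 ± 0.17. Mmp9 was at 0.58 ± 0.29, Prtn3 at -0.55 ± 0.28, Timp2 at 0.22 ± 0.11 and Timp1 at -0.39 ± 0.24.

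How the members varied together was measured over the 24 libraries on log2 CPM, for all 45 pairs, with 2-sided permutation p from 100000 resamples adjusted over the pairs. The permutation exchanged libraries freely across groups and batch dates, so its p does not allow for either. The share of pairs of other genes with such r was not counted. Of the 45 pairs 11 had an adjusted p under 0.05, 8 positive and 3 negative, and 10 of these 11 had the same sign within the 9 March libraries and within the 14 October libraries. Eln and Loxl1 were closest, with Pearson r = 0.748 (permutation p = 3e-05, adjusted p = 0.0009) and Spearman rho = 0.745 (permutation p = 7e-05). Within March r was 0.554 and within October 0.892. After group and batch means were removed it was 0.738, and without the 2 libraries farthest from the median of Eln 0.852. Elastin and this oxidase therefore tended to be high and low in the same libraries, also within groups, and both were low in C 1. RIC+DE+PFD was an exception, with Eln at 128, 117 and 201 CPM and Loxl1 at 148, 79.5 and 73.9. Without RIC+DE+PFD 1 the r was 0.849.

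Fbn1 and Lox followed with r = 0.726 (permutation p = 4e-05, adjusted p = 0.0009) and rho = 0.639 (permutation p = 0.00117). It was 0.875 in March, 0.548 in October, 0.459 after group and batch means were removed and 0.621 without the 2 farthest libraries. Mfap5 and Ltbp2 ran against each other, with r = -0.716 (permutation p = 0.00013, adjusted p = 0.00195) and rho = -0.683 (permutation p = 0.00049). For that pair r was -0.787 in March, -0.687 in October and -0.670 without the 2 farthest. It was -0.567 without RIC+DE+PFD 1 and -0.382 with CPM from total counts, which are not scaled by TMM.

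Other pairs rested on fewer libraries. Fbn1 and Loxl2 had r = 0.707 and rho = 0.496, but r = 0.304 without the 2 farthest libraries. Fbn1 and Ltbp2 had r = 0.595, with 0.851 in March and 0.046 in October. Fbn1 and Mfap4 had r = -0.501, with -0.737 in March and 0.011 in October. The remaining 5 pairs were Lox and Loxl2 (0.587), Eln and Loxl2 (0.575), Eln and Fbn1 (0.559), Mfap4 and Mfap5 (0.525) and Mfap4 and Ltbp2 (-0.570). Lox and Loxl1, enzymes of 1 family, had r = -0.071 (permutation p = 0.743). With CPM from total counts, r was -0.303 for Mfap4 and Ltbp2 and -0.206 for Fbn1 and Mfap4. The 3 negative pairs join a gene of long transcript with one of short transcript, libraries differed in their trend with gene length, and the part of that trend was not tested.

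**Figure D4:**
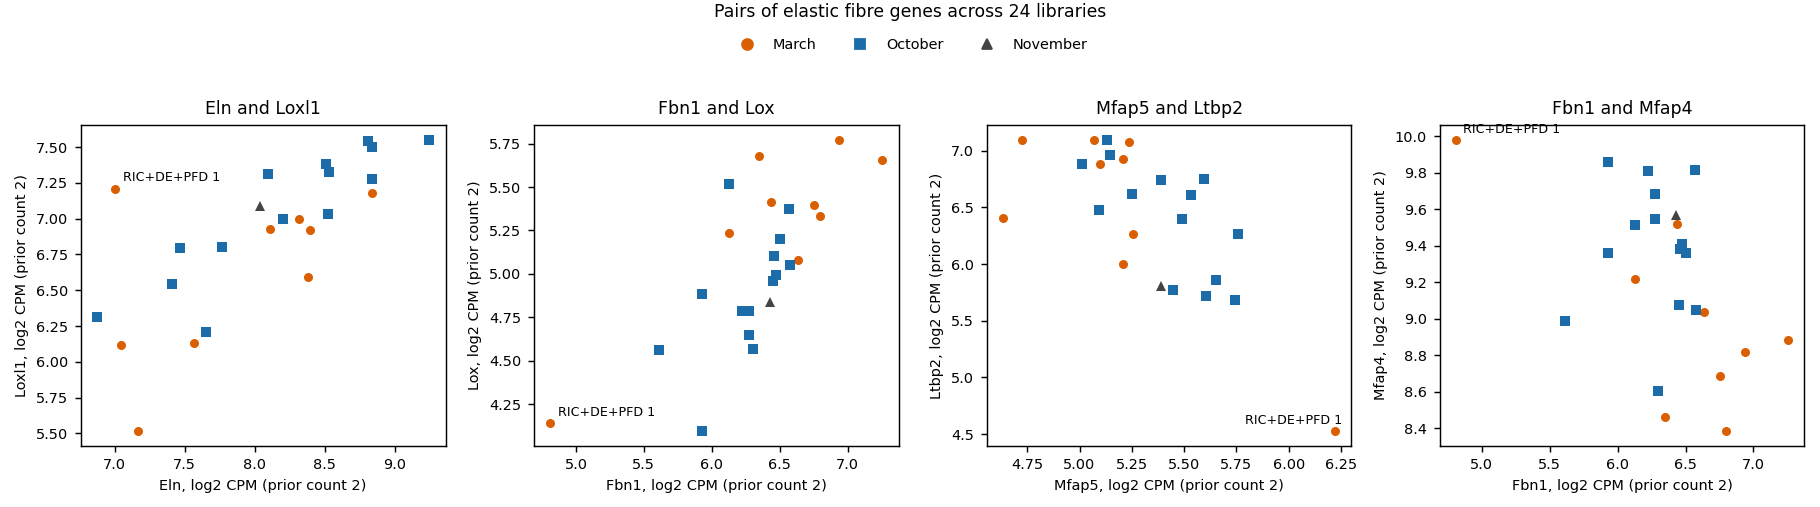
Log2 CPM (prior count 2) of 4 pairs of genes across 24 libraries, coloured by batch date, with library RIC+DE+PFD 1 labelled. Eln and Loxl1 increase together in both batches (r = 0.748), Fbn1 and Lox likewise (0.726), Mfap5 and Ltbp2 run opposite (-0.716), and for Fbn1 and Mfap4 (-0.501) the October points show no trend (0.011).

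Genes outside the set whose log2 CPM was most like that of 3 members were found among 13649 genes by Pearson r over the 24 libraries, which share depth and batch, and are given as a description. For Eln they were Leo1 (0.856), Creb3l1 (0.843), Exoc3l4 (0.826), Adamts17 (0.822) and Ccnjl (0.806), of which Adamts17 belongs to the further fibre genes. For Lox they included Mob1b (0.814), Ubxn7 (0.808), Uba6 (0.799) and Fem1c (0.797). For Mfap5 they were Yif1a (0.871), Acy3 (0.868), Tecr (0.864), Fahd2a (0.856) and Nudt2 (0.852). Without RIC+DE+PFD 1 the r of these 14 genes lay between 0.743 and 0.874.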

How the data were processed

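Per the labels' protocols, oligo(dT) strand-specific libraries were made from total lung RNA. Per the submitters' processing notes, FastQC 0.12.1, fastp 0.23.4, STAR 2.7.11b, featureCounts, R 4.4.1 and DESeq2 were used, with genome build GRCm39. Neither the annotation release nor the strand setting of the counting is given in the sources used here, nor how multimapping reads were handled. The authors deposited whole-number read counts per gene, not normalized, for 24 libraries and 78275 genes.

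Symbols and exon lengths were taken from GENCODE M21 (GRCm38) by gene identifier, which named 51486 genes holding 98.4% of counts. Counts were tested with edgeR 4.0.16 in R 4.3.3: TMM scaling, filterByExpr by group (17490 genes), group and 3-level batch terms over all 24 libraries, quasi-likelihood F tests and Benjamini-Hochberg adjustment with a threshold of 0.05. An SE is the log2 fold change divided by the square root of F. DESeq2 1.42.0, other filters and scalings, left-out libraries, other batch terms and a replicate block were alternatives. Correlations used log2 CPM with a prior count of 2. The fit was tested on simulated data, and no pair of libraries of a group agreed within sampling noise. Members are given by value or by range in every comparison, and of each other list the 2 genes with the smallest p. For likeness, the 5 genes with the highest r were taken, of which 1 for Lox is not reported here. The 10 members and all lists were chosen with earlier results of these data known. Elane did not pass the filter on low counts. Total counts were 12224106 to 16925635 in March libraries, 3906807 to 11298160 in October and 18494156 in November, and their number limits the precision of low genes.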

Additional observations from a re-analysis of the deposited data

How the results depend on the processing

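Of 4110 values of members under 38 alternatives with a fit, 3903 kept their sign and 12 passed the threshold. DESeq2 called 1 member in the interaction of pirfenidone with preconditioning (Fbn1), and so did a fit with no batch term. With no filter on low counts there was 1 member in RIC+DE minus DE (Ltbp2, adjusted p = 0.00103 in edgeR), 2 in RIC+DE+PFD minus DE (Eln and Lox), 1 in DE+PFD+RIC minus DE (Ltbp2), 2 in RIC+DE+PFD minus DE+PFD (Eln and Fbn1), 1 in the preconditioning interaction (Fbn1) and 4 across the 8 groups (Eln, Fbn1, Ltbp2 and Lox). Of 41345 genes 63 to 2179 passed in the comparisons and interactions of that fit. The number in each single test, and across the 8 groups, is not given here. With only the groups compared there were 2 in RIC+DE minus DE (Mfap4 and Ltbp2), where group and batch date coincide and no batch term can be fitted. There 16256 genes were tested, and 0 to 3784 genes passed over the comparisons and interactions of this setting. How many passed in RIC+DE minus DE alone is not given here, so these 2 members are not set against a background. The cause was not tested. Leaving out 1 library at a time gave 0 to 1 members in the preconditioning interaction, Fbn1 without RIC+DE+PFD 2. Over these fits 0 to 2879 of all genes passed in that interaction, the most without RIC+DE+PFD 2, 0 to 2317 in October minus March, the most without RIC+DE+PFD 1, 0 to 84 across the groups and 0 to 54 over the 9 comparisons. Of all genes tested, 0 passed in each comparison and interaction in the fit reported, 4 to 1692 with DESeq2, 63 to 2179 with no filter, 0 to 3784 with only the groups compared, 0 to 1653 with no batch term and 0 to 41 with October libraries alone.

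Some log2 values changed sign. Those that also moved by more than the SE of the fit reported are listed in this paragraph and the next. With October libraries alone Fbln5 was at 0.093 in RIC minus C, Eln at -0.92 in DE+PFD+RIC minus DE (-0.90 with only the groups compared), Eln at -0.91 and Mfap4 at -0.30 in DE+PFD+RIC minus DE+PFD, Mfap4 at -0.15 and Mfap5 at -0.35 in RIC+DE+PFD minus DE+PFD, and Eln at -0.48 in the perconditioning interaction. The correlation of Fbn1 and Mfap4 was 0.011 there. With the length trend removed Fbln5 was at -0.11 in DE+PFD+RIC minus DE. Without both RIC+DE+PFD 1 and DE 1, Mfap4 and Mfap5 were at -0.074 and -0.35 in RIC+DE+PFD minus DE+PFD, Mfap5, Loxl1 and Loxl2 at -0.20, -0.63 and 0.20 in the preconditioning interaction, and Mfap5 and Loxl2 at 0.22 and -0.11 in October minus March. Without RIC+DE 1 as well, the same 7 values were -0.076, -0.36, -0.12, -0.73, 0.28, 0.22 and -0.11. Without the 3 RIC+DE+PFD libraries the last 2 were 0.24 and -0.088.

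Leaving out 1 library at a time, the sign was lost without C 1 for Eln (-0.057 to 0.60) and Loxl1 (-0.26 to 0.31) in RIC minus C and (-0.032 to 0.59; -0.099 to 0.50) in October minus March. It was lost without RIC+DE+PFD 1 for Mfap4 (-0.075 to 0.88) and Mfap5 (-0.35 to 0.45) in RIC+DE+PFD minus DE+PFD, for Mfap5 (-0.093 to 1.09), Loxl1 (-0.54 to 0.91) and Loxl2 (-0.55 to 0.21) in the preconditioning interaction, and for Mfap5 (-0.17 to 0.22) and Loxl2 (-0.11 to 0.24) in October minus March. Other losses of this size were Fbn2 in that interaction without RIC+DE 1 (-1.13 to 1.27), Lox in the perconditioning interaction without DE+RIC 1 (-0.16 to 0.71), Lox in DE+RIC minus DE without DE+RIC 2 (-0.39 to 0.49) and Eln in DE+PFD+RIC minus DE+PFD without DE+PFD+RIC 2 (-0.45 to 0.51). Smaller changes of sign are not listed, such as that of Lox in RIC+DE minus DE without RIC+DE+PFD 1 (-0.022).

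Replicate numbers did not pair the libraries: deviations of same-numbered libraries correlated at -0.371 to 0.412 over 27 pairs, and 6 of 24 libraries correlated best with their own number. With the replicate block 0 members passed, and 0 to 16 of all genes in the comparisons and interactions. Among the values that changed sign in that fit were Lox, to -0.37 in RIC+DE minus DE, -0.18 in DE+PFD+RIC minus DE, 0.018 in DE minus C and -0.063 in the perconditioning interaction, and Fbn2, to 0.20 in RIC+DE minus DE. Depth limits Fbn2, with 1 to 21 reads per library. Removing the length trend and leaving out the RIC+DE+PFD group were alternatives chosen after seeing the data.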
